A study of Homo sapiens with 56 samples.

Results

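The comparison covered 6 of the 56 libraries of an RNA-seq series on human mantle cell lymphoma, a B-cell cancer driven by cyclin D1. They were chosen by their labels: the JEKO-1 and Z138 libraries treated with S63845 as the only agent (3) and the CON libraries of the same lines (3), with cell line as a block. JEKO-1 and Z138 are established human mantle cell lymphoma cell lines. JEKO-1 had 1 library of each kind and Z138 had 2 of each. S63845 is a small molecule that binds the MCL-1 protein, and CON was read as untreated, a state the study design mentions without that code. The labels gave neither dose nor time of exposure, and no added gene or allele in any group. They held no statement that libraries came from separate cultures, so every p-value below measures only the spread between libraries. In fits with line as a block, that spread includes any disagreement between the JEKO-1 and Z138 differences. CLF, IBR and YM155 libraries of the same lines (4, 5 and 2) served as direct comparators and are named by the labels' codes.

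MCL-1 is an anti-apoptotic member of the BCL2 family at the outer mitochondrial membrane. It holds the pore-forming proteins BAX and BAK1, and BH3-only activators such as BIM (gene BCL2L11), in check there. BH3 mimetics such as S63845 occupy the groove of MCL-1 that BH3-only proteins bind, which frees those partners to start apoptosis. Many B-cell lymphomas depend on MCL-1, BCL2 or BCL-XL (gene BCL2L1) for survival. The drug acts on a protein, so the transcript values below describe the cells' RNA after exposure and not the binding itself.

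The 6 libraries held 12.1 M to 18.8 M recovered reads each (M, mega), so that 3 reads correspond to 0.160 to 0.249 CPM (counts per M reads). All 6 expressed the mantle cell genes CCND1 (1488 to 3141 CPM) and SOX11 (79.8 to 610 CPM) and the B-cell gene MS4A1, while CD5 was near 10 CPM in JEKO-1 and 0 in Z138. None of the 5 myeloid markers in the table passed the filter on low values, the highest being ITGAM at 2.32 CPM in treated JEKO-1. Of the 6 T-cell markers CD3D, CD3E and CD2 did not pass it (0 to 0.717 CPM). TRAC was 16.7 against 21.8 CPM in JEKO-1 and under 1 CPM in Z138, CD28 was between 0.437 and 3.06 CPM, and CD3G was 10.1 and 9.75 CPM untreated against 8.16 and 3.45 CPM treated in Z138. The JEKO-1 S63845 library stood apart from the other 5. It had 13452 genes with a read against 16111 to 17247 in the others, 17.5% of its CPM on mitochondrial transcripts (95% Wilson interval 17.498 to 17.541, counting error only) against 1.91% to 6.68%, and 3841 CPM of 7SK RNA against at most 73.2 CPM. Its part in the JEKO-1 differences was not tested, because JEKO-1 had no second S63845 library. Values for Z138 alone are therefore given throughout.

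No gene was called between S63845 and CON. Of 13653 genes tested, 0 (0%) had an adjusted p under 0.05 in limma, a linear model over all genes with Benjamini-Hochberg adjustment, and the smallest adjusted p was 0.637. At an unadjusted p under 0.05 there were 630 genes, or 4.61%, with 303 higher and 327 lower. With mitochondrial genes left out of the scaling 435 were higher and 211 lower, and with size factors 351 and 298. In Z138 the spread between treated and untreated libraries covered that between replicates: the SD of log2(CPM + 1) differences over genes was 0.646 between the 2 CON libraries, 0.602 between the 2 S63845 libraries and 0.547 to 0.730 across treatment. In JEKO-1 it was 0.897 between the single S63845 and CON libraries. With 3 libraries against 3 arranged within line, an exact permutation test of a single gene can reach no lower than p = 0.167 (two-sided), so the values below are descriptions of 6 libraries.

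Genes are therefore described by whether the groups overlapped. A gene is called separated when every S63845 library lay above, or every S63845 library lay below, every CON library of its line. In JEKO-1 that is only the sign of 1 difference. By this rule 853 of 13653 genes (6.25%) were higher and 1160 (8.5%) were lower with S63845. With mitochondrial genes left out of the scaling these shares were 8.81% and 6.1%, and with size factors 6.99% and 8.06%. In Z138 alone 2371 genes (17.4%) were higher and 1864 (13.7%) lower without overlap. The median difference over all genes was -0.24 log2 units in JEKO-1 and 0.03 in Z138. Every fold and log2 value below is a difference on log2(CPM + 1) or a ratio of mean CPM, with no gene past the limma threshold unless a sentence says so.

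The target and its family came first. MCL1 (ENSG00000143384, chr1:150560895-150579739, hg38) stood at 494 CPM in untreated and 399 CPM in S63845-treated JEKO-1. In Z138 it was 344 and 325 CPM untreated and 309 and 411 CPM treated. The Z138 groups overlapped, and the fitted difference was -0.04 ± 0.22 (SE, log2). BCL2, the target of other BH3 mimetics, went from 222 to 554 CPM in JEKO-1 and was 239 and 252 CPM against 200 and 247 CPM in Z138, so its higher level was seen in the single JEKO-1 library only. BCL2L1, encoding BCL-XL, was 78.6 CPM untreated and 51.1 CPM treated in JEKO-1, and 85.3 and 99.5 CPM against 97.9 and 111 CPM in Z138.

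The most abundant BH3-only gene whose groups did not overlap was PMAIP1 (NOXA, chr18:59899996-59904306), whose protein binds MCL-1. It was 176 CPM in untreated and 303 CPM in treated JEKO-1. In Z138 both untreated libraries were at 151 CPM and the treated ones at 214 and 332 CPM. The ratio was 1.72 in JEKO-1 and 1.81 in Z138, and the fitted difference 0.80 ± 0.22 (SE; limma adjusted p = 0.928). HRK, a BH3-only protein best known in neurons, was scarcer and also separated, at 9.93 against 12.8 CPM in JEKO-1 and 5.12 and 3.83 against 10.2 and 15.0 CPM in Z138. BAK1, a pore former that MCL-1 restrains, was 71.3 against 25.5 CPM in JEKO-1, and overlapped in Z138 at 15.3 and 23.7 against 11.4 and 19.1 CPM. BAX overlapped in Z138 (21.9 and 46.8 CPM untreated, 33.4 and 48.9 CPM treated).

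Of 29 genes in the lists of anti-apoptotic BCL2 proteins, BH3-only proteins and effectors, and inhibitors of apoptosis, 24 passed the filter, 0 were called, 4 were separated as higher (PMAIP1, HRK, BCL2L2, BIRC2) and 1 as lower (BAD), against 6.25% and 8.5% of all genes. BIRC2 lost its separation under size factors and BAD with mitochondrial genes left out. BIRC5 (survivin), the other protein named in the study's title, was 250 against 205 CPM in JEKO-1 and 158 and 189 against 160 and 145 CPM in Z138. BCL2A1, BCL2L10, BOK, BCL2L11 and BIRC7 did not pass the filter. BCL2L11, which encodes the activator BIM, had 0 CPM in all 6 libraries, which with no read allows up to 0.160 to 0.249 CPM. Among 10 tested regulators of MCL-1 protein stability, MARCHF5 alone was separated, at 39.0 against 41.0 CPM in JEKO-1 and 38.3 and 42.9 against 45.5 and 49.2 CPM in Z138.

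**Figure D1:**
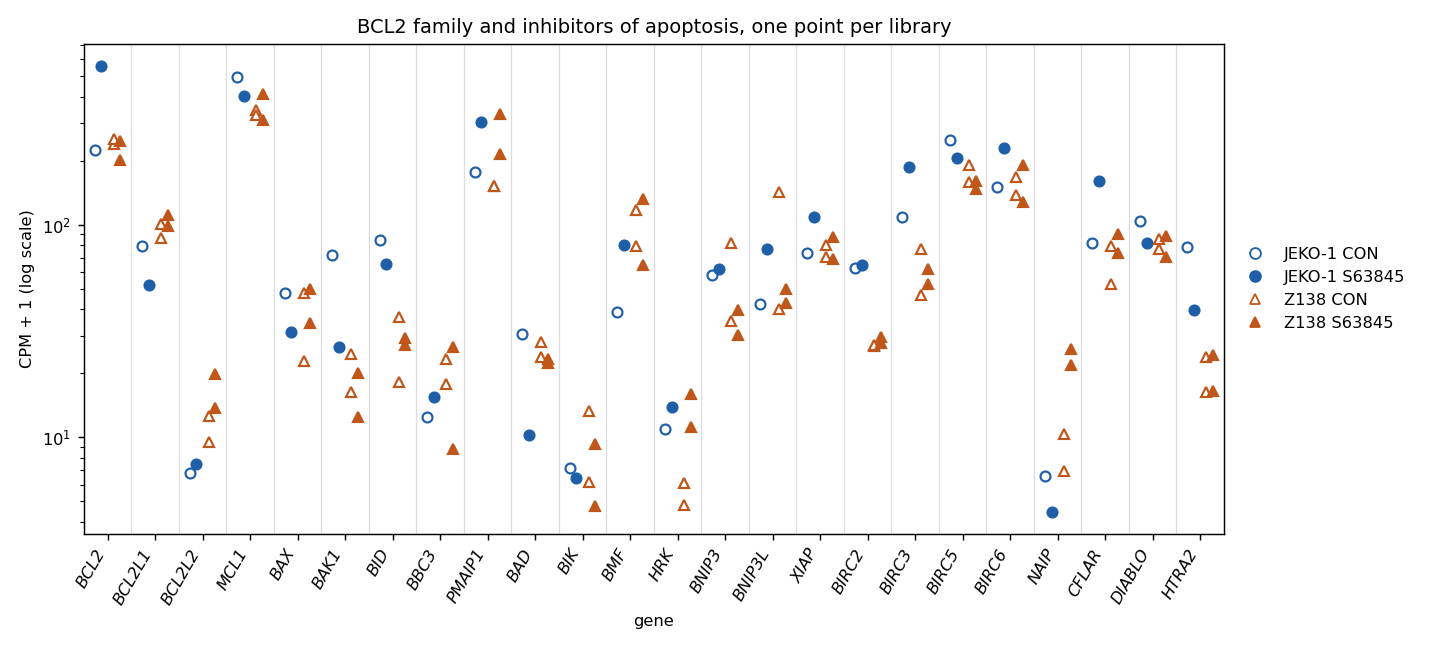
CPM + 1 on a log axis for the 24 tested genes of the BCL2 family and the inhibitors of apoptosis. Each point is 1 library, circles for JEKO-1 and triangles for Z138, open for CON and filled for S63845; MCL1 overlaps in Z138 between 309 and 411 CPM, while the filled PMAIP1 points lie above the open ones in both lines.

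The highest protein-coding genes by the naming rule were those of heme, iron and thiol defence. NRF2, a transcription factor held in the cytosol by KEAP1 and released by oxidative or electrophilic stress, binds antioxidant response elements and induces enzymes that make glutathione, reduce quinones and degrade heme; ferritin genes are among its targets. HMOX1 (heme oxygenase, chr22:35380361-35394215) was 12.1 CPM in untreated and 121 CPM in treated JEKO-1, and in Z138 4.18 and 1.02 CPM untreated against 22.1 and 189 CPM treated. Every treated library exceeded every untreated library of its line, and the 2 treated Z138 libraries themselves differed widely. The ratio of mean CPM was 9.98 in JEKO-1 and 40.5 in Z138. The fitted difference was 3.98 ± 0.74 (SE; limma adjusted p = 0.928), and 2.998 ± 0.50 without Z138 S63845 replicate 2 (limma adjusted p = 0.801).

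NQO1, a quinone reductase (chr16:69706996-69726669), was 7.33 against 53.8 CPM in JEKO-1 and 8.80 and 3.47 against 26.3 and 65.0 CPM in Z138, close to the same ratio in both lines (7.34 and 7.44). FTH1, the ferritin heavy chain that oxidises and stores iron (chr11:61959718-61967635), was 1046 against 3927 CPM in JEKO-1 and 975 and 643 against 1931 and 3007 CPM in Z138. FTL, the ferritin light chain, was 590 against 1707 CPM in JEKO-1 and 935 and 658 against 1582 and 1835 CPM in Z138. So both ferritin chains stood at 1582 CPM or more in all 3 treated libraries and at 1046 CPM or less in all 3 untreated ones. BEST1, an ion channel gene whose span (chr11:61950063-61965516) overlaps FTH1, was 6.44 against 32.4 CPM in JEKO-1 and separated in Z138, and FTH1P7 is a pseudogene copy of FTH1; how reads were divided among the 3 is not given in the sources used here, so the 2 lesser values are uncertain.

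Other NRF2 targets were separated in the same direction. SLC7A11, the cystine importer that feeds glutathione synthesis, was 9.88 against 47.1 CPM in JEKO-1 and 38.3 and 15.6 against 51.0 and 82.0 CPM in Z138. SRXN1, which repairs oxidised peroxiredoxins, was 23.1 against 64.5 CPM in JEKO-1 and 10.6 and 15.9 against 23.1 and 31.9 CPM in Z138. GCLM, a subunit of the enzyme that limits glutathione synthesis, was 25.4 against 49.6 CPM in JEKO-1 and 28.5 and 26.1 against 51.2 and 59.8 CPM in Z138, with groups that were tight and apart. TXNRD1, thioredoxin reductase, was 248 against 352 CPM in JEKO-1 and 242 and 280 against 331 and 418 CPM in Z138. SQSTM1, the autophagy receptor p62 that binds KEAP1, stood in the lysosome and autophagy list and was 193 against 626 CPM in JEKO-1 and 170 and 178 against 253 and 490 CPM in Z138.

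Of 19 NRF2 targets listed, 18 were in the table and 17 were tested, with 0 called. Separated as higher were 9 (HMOX1, NQO1, GCLM, TXNRD1, SRXN1, SLC7A11, FTH1, FTL and GSR), against 6.25% of all genes, and 1, ABCC1, was lower. In Z138 alone 14 of 17 were higher without overlap, against 17.4% of all genes. The list median was 0.50 in JEKO-1 and 0.66 in Z138 (log2), and 12 and 11 of 17 were separated as higher under the 2 other scalings. OSGIN1, another NRF2 target, was listed at 0 CPM in treated JEKO-1 and separated only in Z138 (0.499 and 0.359 against 2.49 and 6.11 CPM). TALDO1 and TKT of the pentose phosphate pathway were lower in JEKO-1, and in Z138 TALDO1 was higher (158 and 142 against 193 and 230 CPM) and TKT overlapped.

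**Figure D2:**
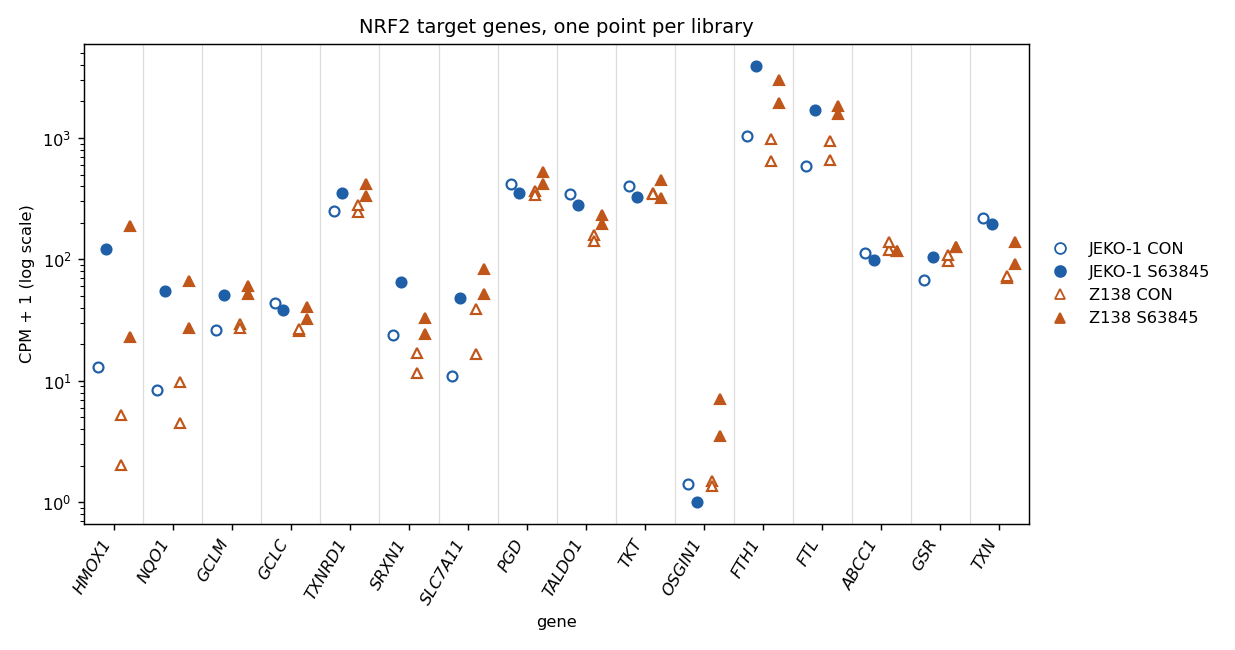
CPM + 1 on a log axis for 16 NRF2 target genes, 1 point per library, circles for JEKO-1 and triangles for Z138, open for CON and filled for S63845. Filled points lie above open ones in both lines for HMOX1, NQO1, GCLM, TXNRD1, SRXN1, SLC7A11, FTH1, FTL and GSR.

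The antioxidant response element was looked for in the 250 bases before each RefSeq transcript start (GRCh38.p14), as TGACNNNGC on either strand. Of the 19 listed genes 12 had an entry, and 4 (33.3%) held a match, GCLM, ME1, PGD and TXNRD1, against 13.2% of the 27305 genes in the RefSeq table and 10.9% of its 35116 windows of this length. HMOX1, FTH1 and SLC7A11 had no entry. ME1 was not analysed here for expression, and the 60 bases around its match also held the AP-1 motif TGACTCA, which the 3 stretches below did not. The stretches of 60 bases around the match are shown for the 2 matched genes that were separated, with the match in capitals, and with 2 starts for TXNRD1. A match is only a description of these letters.
GCLM, chr1:93909431-93909490, minus strand: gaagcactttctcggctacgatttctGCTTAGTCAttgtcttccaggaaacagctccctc
TXNRD1 first start, chr12:104215654-104215713, plus strand: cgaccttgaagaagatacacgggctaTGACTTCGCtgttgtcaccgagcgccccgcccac
TXNRD1 second start, chr12:104286904-104286963, plus strand: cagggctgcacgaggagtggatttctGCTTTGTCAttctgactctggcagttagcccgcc

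Other stress programmes were less uniform. ATF4 drives amino acid import and synthesis when translation initiation is checked. Of 24 tested genes of ATF4 and amino acid stress 3 were separated as higher (against 6.25% of all genes) and 0 as lower: SLC7A11, VLDLR and the glutamine transporter SLC38A2 (271 against 507 CPM in JEKO-1, 547 and 484 against 657 and 619 CPM in Z138). The stress factors ATF3 and DDIT3 overlapped in Z138, with ATF3 at 23.0 and 19.0 against 15.8 and 67.8 CPM. Of 16 genes of the endoplasmic reticulum response, EDEM1 alone was separated, at 153 against 264 CPM in JEKO-1 and 454 and 268 against 631 and 504 CPM in Z138.

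Heat shock genes set 1 library apart. HSPA6, a strictly inducible HSP70, was 2.78 CPM in Z138 S63845 replicate 1 and 1042 CPM in replicate 2, against 0.874 and 3.11 CPM untreated. HSPA1B, which shares near-identical sequence with HSPA1A, was 53.5 and 282 CPM untreated against 124 and 1490 CPM treated in Z138, and 643 against 220 CPM in JEKO-1. The immediate early genes FOSB (48.8 CPM) and JUN (162 CPM) were also highest in Z138 S63845 replicate 2, with replicate 1 at 0.831 and 6.04 CPM. The median difference of 18 heat shock genes was -0.72 in JEKO-1 and 0.50 in Z138, with 1 gene separated in each direction. Of 23 tested p53 targets 1 was separated as higher, TIGAR, and the p21 gene CDKN1A overlapped in Z138 (260 and 397 against 303 and 331 CPM).

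On the lower side, the genes of MHC class II presentation were the list with the highest separated share. MHC class II molecules show peptides to CD4 T cells. B cells transcribe them through the coactivator CIITA and the RFX complex, and CD74 and the DM and DO proteins take part in peptide loading. HLA-DRA, the near-invariant alpha chain, was 1466 against 844 CPM in JEKO-1 and 1304 and 1372 against 1077 and 734 CPM in Z138. HLA-DRB1 was 242 against 74.7 CPM in JEKO-1 and 281 and 371 against 267 and 214 CPM in Z138. CD74, the invariant chain, was 2655 against 1696 CPM in JEKO-1 and 2817 and 3228 against 2046 and 1855 CPM in Z138. In each case all treated libraries were below all untreated ones of the line.

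HLA-DPA1 was 530 against 247 CPM in JEKO-1 and 480 and 597 against 386 and 347 CPM in Z138. HLA-DQA1 was 34.0 against 17.7 CPM in JEKO-1 and 129 and 148 against 93.6 and 77.0 CPM in Z138, a line with more of it. HLA-DOA, a modulator of DM (chr6:33004182-33009592), was 79.0 against 40.1 CPM in JEKO-1 and 85.5 and 63.0 against 46.6 and 29.6 CPM in Z138, a ratio of 0.507 in JEKO-1 and 0.513 in Z138. HLA-DRB1 and HLA-DRB5 are near-identical copies whose reads can be exchanged. CIITA was 243 against 106 CPM in JEKO-1 but overlapped in Z138, at 191 and 298 against 224 and 157 CPM.

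All 17 listed MHC class II genes were tested and 0 were called. Separated as lower were 11 (HLA-DRA, HLA-DRB1, HLA-DRB5, HLA-DPA1, HLA-DPB1, HLA-DQA1, HLA-DQB1, HLA-DMA, HLA-DOA, CD74 and RFX5), 64.7% against 8.5% of all genes, and 0 were higher. In Z138 alone 12 of 17 were lower without overlap, against 13.7%. The list median was -1.10 in JEKO-1 and -0.43 in Z138, and 10 and 11 remained separated as lower under the scalings without mitochondrial genes and with size factors; RFX5 was lost under the first of these. Fitted differences of the 11 ran from -0.43 ± 0.21 for RFX5 to -1.08 ± 0.27 for HLA-DRB5 (SE). Of the 17 MHC class I genes 4 were separated as lower (HLA-E, PSMB10, ERAP1 and ERAP2; 8.5% of all genes), while HLA-B and HLA-C overlapped in Z138 and B2M was 1173 against 1177 CPM in JEKO-1 and 1322 and 1743 against 1301 and 1321 CPM in Z138.

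**Figure D3:**
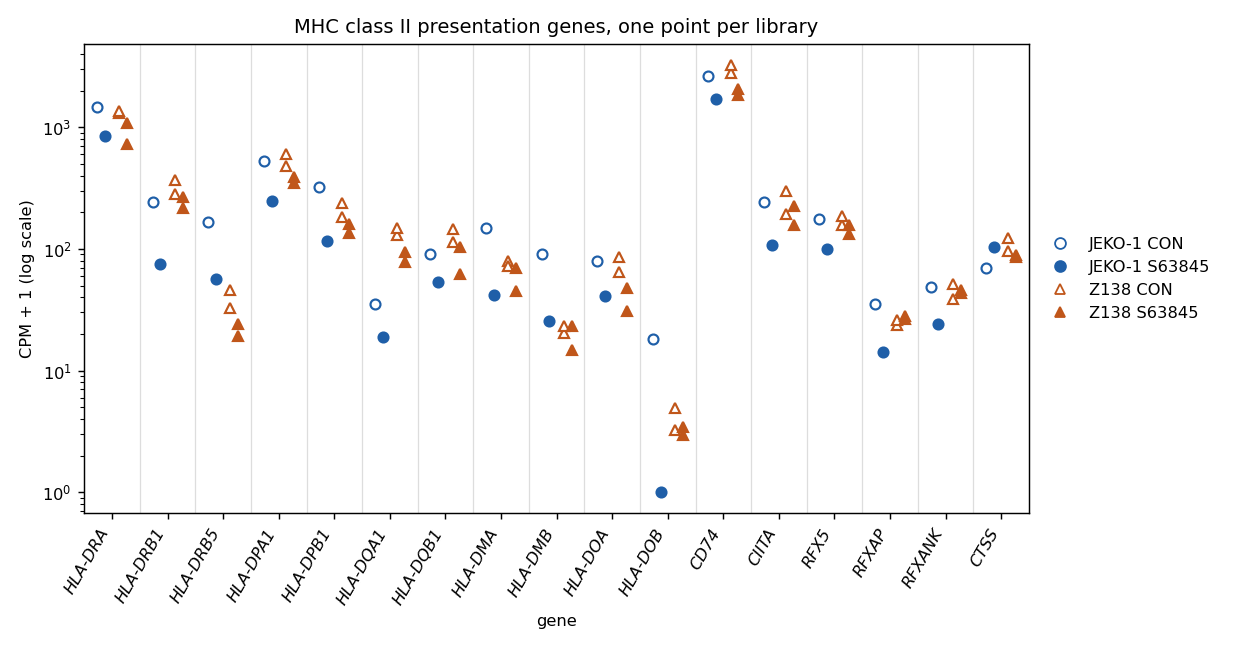
CPM + 1 on a log axis for the 17 MHC class II presentation genes, 1 point per library, circles for JEKO-1 and triangles for Z138, open for CON and filled for S63845. For 11 genes the filled points lie below the open ones in both lines, and for CIITA the Z138 points overlap.

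The Y box of class II promoters, an inverted CCAAT box, was looked for as CTGATTGG on either strand in the same 250-base RefSeq windows. Of the 17 listed genes 14 had an entry and 5 (35.7%) held it, against 4.59% of 27305 genes and 3.81% of 35116 windows; the motif contains ATTGG, the reverse of a CCAAT box, and so overlaps any CCAAT motif there. The box is a feature of class II promoters, so its share in this list does not bear on S63845, and a match is only a description of these letters. HLA-DRA, CD74, HLA-DPA1 and HLA-DOA were also separated as lower and were not among the matched genes. That can mean no entry or no exact match in the window, and does not show that a promoter lacks the box. The 4 HLA genes with a match, all separated as lower, are shown to let the shared box be seen, with the box in capitals. It lies 49 to 42 bases before the start in HLA-DRB1, 93 to 86 in HLA-DRB5, 91 to 84 in HLA-DQB1 and 82 to 75 in HLA-DMA.
HLA-DRB1, chr6:32589864-32589923, minus strand: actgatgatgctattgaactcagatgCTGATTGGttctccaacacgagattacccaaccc
HLA-DRB5, chr6:32530347-32530406, minus strand: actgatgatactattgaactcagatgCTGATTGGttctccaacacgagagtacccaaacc
HLA-DQB1, chr6:32666715-32666774, minus strand: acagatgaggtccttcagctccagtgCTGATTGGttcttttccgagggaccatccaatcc
HLA-DMA, chr6:32953146-32953205, minus strand: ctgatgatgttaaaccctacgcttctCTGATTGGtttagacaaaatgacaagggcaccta

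Several other genes of B cells were among the separated ones. IGHD, the constant region of the IgD heavy chain (chr14:105836765-105845678), was 100 against 24.8 CPM in JEKO-1 and 406 and 389 against 141 and 78.5 CPM in Z138, 0.247 and 0.276 of the untreated level, with a fitted difference of -1.93 ± 0.25 (SE; limma adjusted p = 0.637, the smallest of the comparison). SPI1, encoding the factor PU.1, was 87.8 against 33.6 CPM in JEKO-1 and 26.8 and 20.3 against 13.2 and 5.79 CPM in Z138. IRF8, a partner of PU.1, was 402 against 130 CPM in JEKO-1 and 14.8 and 9.81 against 9.44 and 7.22 CPM in Z138. CD52, a surface glycoprotein, was 36.1 against 18.8 CPM in JEKO-1, and in Z138 4.06 and 1.73 against 1.21 and 0.781 CPM. PRDM1, a driver of plasma cell fate, went the other way, at 5.90 against 19.7 CPM in JEKO-1 and 52.4 and 89.2 against 104 and 99.97 CPM in Z138.

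Of 25 B-cell identity factors 2 were separated as higher (PRDM1 and IKZF3) and 4 as lower (SPI1, IRF8, BACH2 and BCL11A), against 6.25% and 8.5% of all genes. Of 27 tested genes of B-cell receptor signalling 2 were higher (FYN and MALT1) and 7 lower (among them CD79B, SYK, BLK, PIK3CD, VAV1 and GRB2), 7.41% and 25.9% against the same shares. SYK, the proximal kinase of the receptor, was 595 against 332 CPM in JEKO-1 and 126 and 124 against 107 and 91.8 CPM in Z138. BTK, its downstream kinase, overlapped in Z138 at 114 and 59.4 against 90.3 and 71.5 CPM. PAX5, which maintains B-cell identity, overlapped there too (289 and 148 against 188 and 239 CPM), and so did MS4A1; among the 6 B-cell markers CD79B alone was separated.

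Among proliferation genes, 12 of 28 mitosis genes were separated as lower (42.9% against 8.5% of all genes) and 0 as higher. PLK1, a mitotic kinase, was 124 against 51.0 CPM in JEKO-1 and 144 and 104 against 76.2 and 71.2 CPM in Z138. TOP2A, which untangles chromosomes, was 373 against 206 CPM in JEKO-1 and 588 and 556 against 453 and 361 CPM in Z138. CCNB1, the mitotic cyclin, was 162 against 61.6 CPM in JEKO-1 and 99.1 and 107 against 84.8 and 85.7 CPM in Z138. Under the 2 other scalings 10 and 13 mitosis genes were separated as lower, and the list had medians of -0.99 in JEKO-1 and -0.25 in Z138. MKI67, the proliferation antigen, was not among the separated genes (227 against 264 CPM in JEKO-1).

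Of 34 DNA replication genes 0 were higher in the single JEKO-1 pair, where the median was -1.05. In Z138 the median was 0.09, with 7 higher and 2 lower without overlap (17.4% and 13.7% of all genes), and no member was called for a line difference (smallest limma adjusted p = 0.272). MCM6 and RRM1 were the 2 separated members, both lower. CCND1, the cyclin D1 oncogene of this lymphoma, was 2096 against 1488 CPM in JEKO-1 and 2709 and 3141 against 2322 and 1816 CPM in Z138, separated as lower under all 3 scalings. MYC was 607 against 533 CPM in JEKO-1 and 1227 and 954 against 740 and 616 CPM in Z138, and lost its separation in JEKO-1 under both other scalings. Of 29 genes of MYC and ribosome biogenesis 8 were separated as lower (against 8.5% of all genes) and 0 as higher, the former including the acetyltransferase NAT10 (222 against 101 CPM in JEKO-1, 188 and 180 against 112 and 132 CPM in Z138).

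Of 29 tested genes of glycolysis and the hypoxia response 11 were separated as lower (against 8.5% of all genes) and 1 as higher, and in JEKO-1 9 of the 29 were higher. LDHA, which makes lactate, was 1447 against 918 CPM in JEKO-1 and 1050 and 776 against 523 and 530 CPM in Z138. PGK1 was 641 against 428 CPM in JEKO-1 and 514 and 387 against 266 and 325 CPM in Z138. ALDOC, an aldolase (chr17:28573115-28576949), was 8.45 against 2.40 CPM in JEKO-1 and 46.5 and 22.0 against 6.12 and 5.20 CPM in Z138, a fitted difference of -2.03 ± 0.39 (SE; limma adjusted p = 0.928). The other separated genes were HK2, GPI, PFKP, TPI1, ENO1, PKM, LDHB and ANKRD37, all lower, and ADM, which was higher. The hypoxia-induced SLC2A1 and VEGFA overlapped in Z138, PDK1 was higher in JEKO-1 (17.5 against 24.2 CPM) and lower in Z138 (70.5 and 39.8 against 33.1 and 36.2 CPM), and Z138 CON replicate 1 was the highest of the 4 Z138 libraries for P4HA1 (132 CPM against 22.1 to 32.3), NDRG1 and BNIP3L.

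Mitochondrial transcripts divided into those of the organelle and those of the nucleus. MT-ND2, a complex I subunit, was 1567 against 8317 CPM in JEKO-1 and 2120 and 1887 against 4849 and 2920 CPM in Z138. MT-RNR2, the large ribosomal RNA of the organelle, was 1699 against 88561 CPM in JEKO-1 and 5205 and 4172 against 7051 and 10649 CPM in Z138. Of 15 genes of the mitochondrial genome 4 were separated as higher (against 6.25% of all genes). Of 36 nuclear genes of oxidative phosphorylation 8 were separated as lower (22.2% against 8.5% of all genes) and 0 as higher, including ATP5F1B (2119 against 1134 CPM in JEKO-1, 927 and 855 against 748 and 803 CPM in Z138), and in Z138 alone 9 were higher and 8 lower, against 17.4% and 13.7% of all genes. Of 24 sterol synthesis genes 5 were separated as higher (20.8% against 6.25% of all genes), among them HMGCS1 (350 against 409 CPM in JEKO-1 and 71.7 and 137 against 226 and 162 CPM in Z138), which makes the precursor HMG-CoA, with CYP51A1, MSMO1 and DHCR7. ABCG1, a cholesterol exporter, was the third of the 12 lowest genes, at 63.1 against 24.7 CPM in JEKO-1 and 15.7 and 14.3 against 4.68 and 2.80 CPM in Z138.

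Interferon-stimulated genes, the antiviral response set, varied between replicates in Z138. IFI44L was 0.0624 and 4.01 CPM in the untreated and 0.0755 and 130 CPM in the treated Z138 libraries, and in JEKO-1 it was 144 against 79.0 CPM. MX1 was 54.5 and 272 CPM untreated and 42.9 and 277 CPM treated in Z138. For both genes the replicate 2 libraries of CON and S63845, whose library names share a final letter, were above the replicate 1 libraries. Of 35 tested genes 2 were separated as higher (STAT2 and PARP9, against 6.25% of all genes) and 0 as lower. IFIT2 was higher in JEKO-1 (5.42 against 133 CPM) and overlapped in Z138 (0.312 and 3.71 against 0.680 and 55.3 CPM).

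The largest fitted differences were those of the 7SK entries, which are small structural RNAs; in Z138 alone HMOX1 (4.35) exceeded RN7SK (3.91) and 7SK (3.59) on the log2 scale. RN7SK, the 7SK RNA that holds the elongation kinase P-TEFb inactive, was 1.33 against 1647 CPM in JEKO-1 and 0.0761 and 0.767 against 10.03 and 38.1 CPM in Z138, where the first untreated value is below 3 reads. When the spread was shared over all 28 JEKO-1 and Z138 libraries, 6 of 15719 genes were called (0.0382%), all higher: RN7SK, 7SK, SNORD3A, SCARNA10, 5_8S_rRNA and RNA5-8SN3. The 7SK entries and the 5.8S entries are near-identical copies and not independent. SNORD3A was 0.828 against 1766 CPM in JEKO-1, and in Z138 0.000353 and 1.32 against 0.234 and 6.94 CPM, which overlap. JEKO-1 IBR libraries also held 354 to 1044 CPM of RN7SK, and JEKO-1 CLF libraries 0.922 and 25.4 CPM. The libraries were made from poly-A RNA per the labels' protocols, and the part of library composition in these values was not tested.

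Other genes of the 12 highest and 12 lowest were varied. MALAT1, a nuclear long non-coding RNA, was 31.7 against 275 CPM in JEKO-1 and 45.8 and 228 against 315 and 273 CPM in Z138. UTP14C, a processed copy of a ribosome biogenesis gene whose reads may be shared with its parent, was 8.26 against 55.1 CPM in JEKO-1 and 3.37 and 4.41 against 32.4 and 8.03 CPM in Z138. SNHG25 and the pseudogenes IRS3P and FTH1P7 were also among the highest. MYO1G, an unconventional myosin of lymphocytes, was 27.7 against 1.57 CPM in JEKO-1 and 56.6 and 56.7 against 26.7 and 24.0 CPM in Z138. TNFRSF1B, the second TNF receptor, was 29.7 against 14.4 CPM in JEKO-1 and 67.2 and 56.8 against 35.6 and 27.1 CPM in Z138. LY86, N4BP3, PLEKHB1 and SLIT1 complete the lowest, and all 24 kept their separation under both other scalings.

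**Figure D4:**
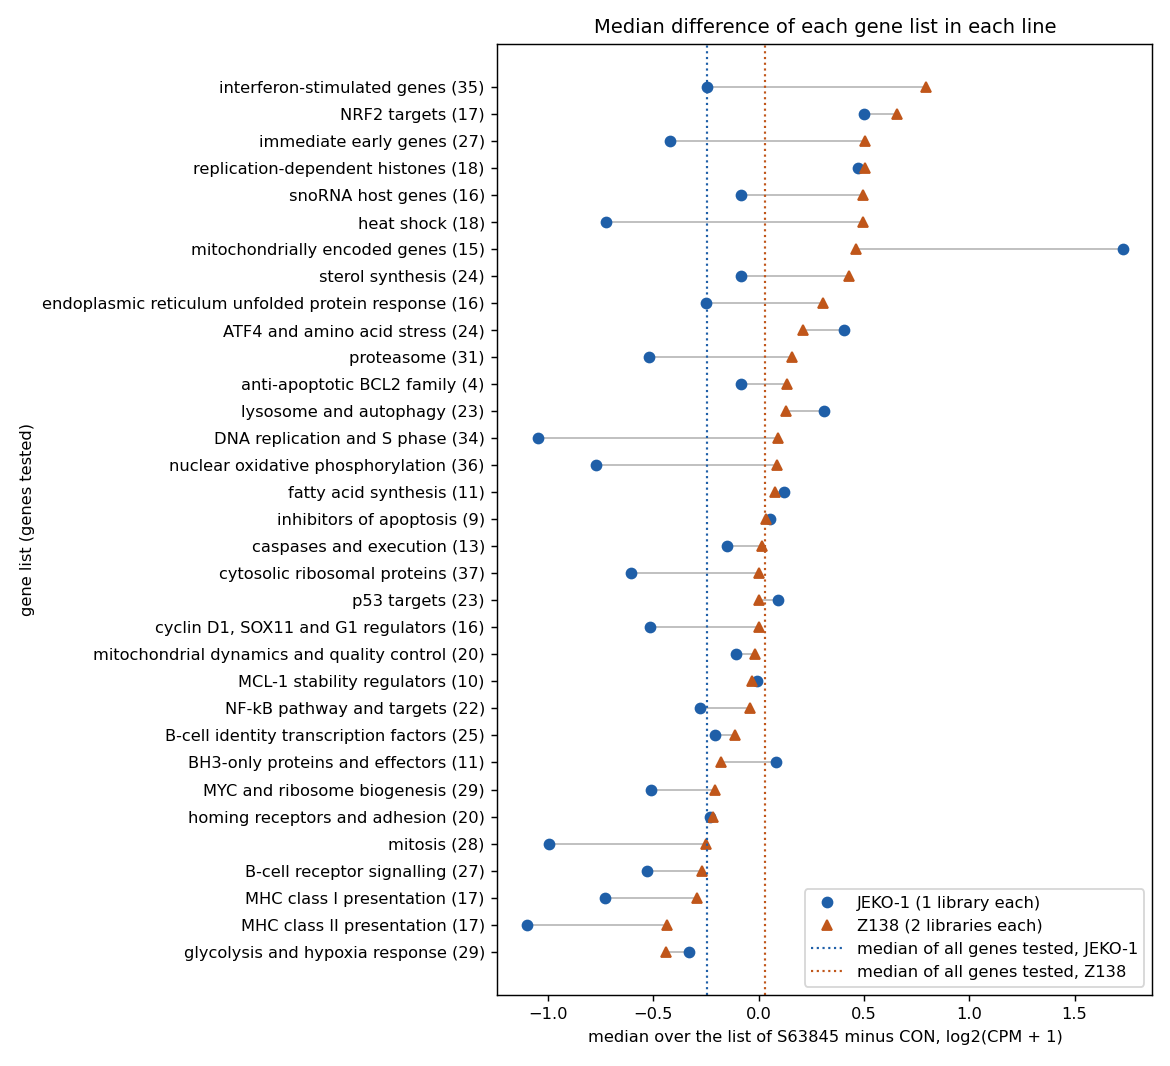
Median over each of 33 gene lists of the difference S63845 minus CON in log2(CPM + 1), circles for JEKO-1 (1 library each) and triangles for Z138 (2 libraries each), with dotted lines at the medians of all genes tested (-0.24 and 0.03). NRF2 targets lie right of both dotted lines, MHC class II and mitosis genes left of both, and heat shock and DNA replication genes have their 2 points far apart.

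Whether the 2 lines differed in their response was asked directly with an interaction term, which compares the JEKO-1 difference with the Z138 difference. Of 13653 genes 0 (0%) were called (smallest limma adjusted p = 0.272), with 2132 (15.6%) at an unadjusted p under 0.05, and the median was -0.29 log2 units. The fit had 2 residual degrees of freedom, both from the Z138 pairs, because JEKO-1 had 1 library of each kind. Its p-values assume that JEKO-1 libraries vary as those of Z138 do, so the 15.6% is not a measure of a line difference. By the naming rule TXNIP, a glucose-regulated inhibitor of thioredoxin, was among the 5 genes higher in JEKO-1 and lower in Z138, at 32.2 against 100.4 CPM and at 277 and 232 against 130 and 96.5 CPM. Its paralogue ARRDC4 was too (4.14 against 9.19 CPM in JEKO-1, 6.62 and 9.03 against 5.14 and 2.08 CPM in Z138), as were TKTL1, LMO3 and KLF9. In the opposite direction were PILRB, the readthrough entries STAG3L5P-PVRIG2P-PILRB and RTEL1-TNFRSF6B, LINC01089 and CPT1B, a fatty acid importer of mitochondria (1.91 against 0 CPM in JEKO-1, 6.07 and 18.9 against 31.7 and 30.1 CPM in Z138). STAG3L5P-PVRIG2P-PILRB overlaps PILRB, so the values of these 2 may not be independent.

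S63845 was compared with 3 other single agents directly, without CON; those fits share the S63845 libraries. Against CLF 0 of 13943 genes were called (0%, smallest limma adjusted p = 0.801), with 736 (5.28%) at an unadjusted p under 0.05. HMOX1 was 9.18 and 75.5 CPM in JEKO-1 CLF and 3.60 and 10.4 CPM in Z138 CLF libraries, below the S63845 libraries of each line, with a fitted difference of 2.76 ± 0.83 (SE). The median difference of the NRF2 list was 0.25 against CLF, -0.67 against IBR and -0.77 against YM155, beside -0.08, 0.08 and 0.07 for all genes. That of the MHC class II list was -0.45 against CLF, 0.81 against IBR and 0.24 against YM155. Lower than CLF by the naming rule were MPEG1, NIBAN3, GCNT1 and the pseudogene LYPLA1P3, and higher were 7SK, RN7SK, UTP14C and HMOX1.

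YM155, developed to suppress BIRC5, had 1 library per line, and the fit had 2 residual degrees of freedom. Of 13604 genes 0 (0%) were called, with 2061 (15.1%) at an unadjusted p under 0.05 and a smallest limma adjusted p of 0.247. FAM111B was 31.4 CPM in S63845 and 2.31 CPM in YM155 libraries of JEKO-1, and 60.9 and 66.6 against 2.24 CPM in Z138. HELLS, a chromatin remodeller of dividing cells, was 119 against 19.0 CPM in JEKO-1 and 101 and 55.2 against 9.44 CPM in Z138. GDF15, a secreted stress signal, was 3.89 against 87.5 CPM in JEKO-1 and 2.79 and 5.20 against 39.0 CPM in Z138. BIRC5 itself was 83.3 and 70.2 CPM in the JEKO-1 and Z138 YM155 libraries, below all 3 S63845 libraries (145 to 205 CPM). TCL1B and IGLC2 were also higher with S63845 than with YM155, and ARG2, PPP1R15A and GADD45A lower.

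Against IBR genes were called. Of 14444 tested, 68 (0.471%) passed an adjusted p under 0.05, 45 higher with S63845 (0.312%) and 23 lower (0.159%), and 2567 (17.8%) had an unadjusted p under 0.05. PLD4, an endosomal exonuclease of the phospholipase D family (chr14:104924713-104937762), was 160 CPM in the JEKO-1 S63845 library and 11.4, 17.7 and 25.7 CPM in IBR. In Z138 it was 69.6 and 110 against 4.14 and 8.09 CPM (fitted difference 3.46 ± 0.36 SE; limma adjusted p = 0.00525). RRM2, a ribonucleotide reductase subunit, was 194 CPM against 16.6, 13.8 and 67.0 CPM in JEKO-1 and 314 and 316 against 15.7 and 18.0 CPM in Z138 (adjusted p = 0.0196 in limma). The untreated libraries were also above all IBR libraries of their line for both genes: PLD4 was 326 CPM in JEKO-1 and 105 and 73.7 CPM in Z138, and RRM2 was 430 CPM in JEKO-1 and 174 and 232 CPM in Z138.

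OSGIN1 had the largest fitted difference in the other direction, a value that depends on the pseudocount, at 0 CPM in JEKO-1 S63845 against 22.0, 15.9 and 28.6 CPM in IBR, and at 2.49 and 6.11 against 82.1 and 52.7 CPM in Z138 (fitted difference -4.07 ± 0.39 SE; limma adjusted p = 0.00508). GDF15 was 3.89 CPM against 50.5, 50.4 and 30.6 CPM in JEKO-1 and 2.79 and 5.20 against 77.7 and 24.0 CPM in Z138 (limma adjusted p = 0.0196). ABHD4, a lipase, and CNTN4, a contactin, were the other 2 named lower genes. Members of the lists called higher than with IBR were RRM2, TYMS and GINS1 of 34 DNA replication genes. So were EGR1 and EGR2 of 27 immediate early genes, beside 0.312% of all genes, and PAX5, CD83, NOP16, LDHA and SNHG15. OSGIN1, GDF15 and the lysosomal protease CTSD were called lower. Higher here is against IBR and not against CON. Mean LDHA was 1447 CPM in CON, 918 with S63845 and 372 with IBR in JEKO-1, and 913, 527 and 121 CPM in Z138. Mean GINS1 was 109, 101 and 33.3 CPM in JEKO-1 and 47.6, 56.2 and 21.8 CPM in Z138. No MHC class II gene was called, and HMOX1 was 254 to 1004 CPM in the 5 IBR libraries (fitted difference -2.28 ± 0.65 SE; limma adjusted p = 0.105).

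The number of genes called against IBR rested on single libraries. JEKO-1 IBR replicates 1 and 2 deviated by 5.15 times their sampling variance over 12253 genes, against 67.2 for the Z138 S63845 pair and 83.4 for the Z138 CON pair. Library names differ by a final letter within each of these pairs. The JEKO-1 IBR replicates 1 and 2 were closer to each other than the Z138 pairs though not within sampling noise, and were counted as 2 libraries. Without one or the other, 4 or 6 genes were called, without Z138 S63845 replicate 1 or 2, 2 or 7, without Z138 IBR replicate 1, 30, and without JEKO-1 IBR replicate 3, 222. Without the JEKO-1 S63845 library 103 were called.

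**Figure D5:**
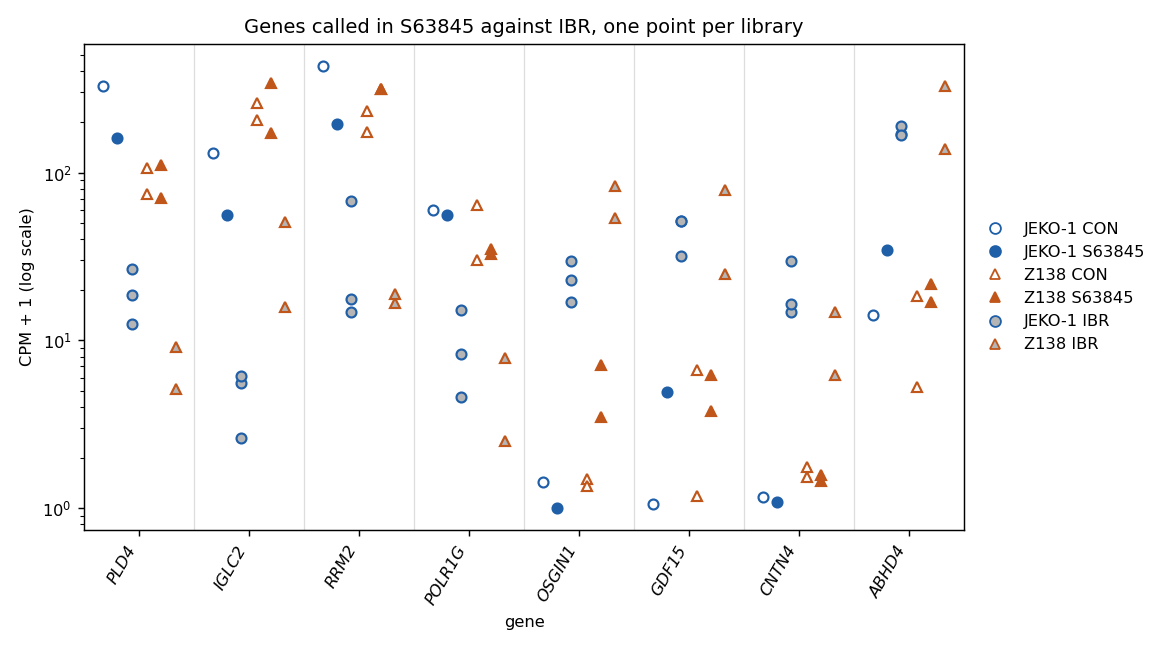
CPM + 1 on a log axis for the 8 genes named in S63845 against IBR, 1 point per library, circles for JEKO-1 and triangles for Z138; open points are CON, filled points S63845 and grey points IBR. For PLD4, IGLC2, RRM2 and POLR1G grey points lie below all others, and for OSGIN1, GDF15, CNTN4 and ABHD4 above them.

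The series holds 3 more libraries with S63845 as the only agent, 2 of MINO-P and 1 of MINO-VR, whose CON libraries belong to another library series (HK and not MCL), so treatment and library series cannot be told apart there. HMOX1 was 25.8 CPM in CON and 465 and 216 CPM in S63845 libraries of MINO-P, and 29.0 against 56.8 CPM in MINO-VR. Of the 12 highest genes 10 had the same direction in MINO-P, 5 in MINO-VR and 4 in both (33.3%, against 18.8% of all genes higher in both). Of the 12 lowest, 10, 4 and 4 did (33.3%, against 40.3% of all genes lower in both). IGHD was 94.4 CPM against 57.6 and 75.0 CPM in MINO-P and 143 against 105 CPM in MINO-VR.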

How the data were processed

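Poly-A RNA was sequenced with paired ends, per the labels' protocols. The authors deposited 1 table of log2 values, which are log2(CPM + 1): with the log2 undone each library summed to 999996 to 999999 CPM. Partek and hg38 are named in the submitters' processing notes; an aligner, counter, annotation and strand setting are not given in the sources used here. Depth was recovered from the steps of low values, which fell within 0.05 of a whole read for 79.6% to 84.2% of them.

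Groups follow the labels' cell line and treatment; replicate numbers are only names. Genes reaching 1 CPM in no fewer than 2 of the fitted libraries were kept. The log2 values were fitted by limma (version 3.58.1; R 4.3.3) with its trend option and a term for cell line, and p-values were Benjamini-Hochberg adjusted over all genes tested (call: under 0.05). The fit of S63845 against CON was tested on simulated data, with 200 of 13653 genes changed at each size. It recovered 0.5% of them at a log2 change of 1, 97.5% at 2 and 100% at 4. Unchanged genes called at these sizes were 1, 20 and 13. The simulated noise used SDs shrunken toward a common value. Changed genes were drawn from the more abundant ones, with the same change in both lines. In the real libraries HMOX1 had a fitted difference of 3.98 and was not called (limma adjusted p = 0.928), so the recovered shares do not carry over to them. The absence of called genes in that comparison therefore says little about changes near 1 log2 unit, and does not exclude larger ones. The members, gene lists and naming rule were chosen with earlier results of these data known. Named genes have a mean of at least 5 CPM and groups that do not overlap within either line, the 12 highest and 12 lowest ranked by the smaller of the 2 line differences; ribosomal, small RNA and pseudogene entries are only listed. For each other agent up to 4 genes a side were named likewise, for the line difference 5 a side, and apoptosis genes were added. Alternatives varied scaling, filter, pseudocount, variance model and libraries. The 1 table row without a gene name was left out. A few genes of the lists are not reported here.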

Additional observations from a re-analysis of the deposited data

Results flagged for a closer look

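The median log2(CPM + 1) of the 24 sterol synthesis genes differed by -0.239 with S63845 in JEKO-1 and by 0.635 on average in Z138, a difference of -0.874 between the lines. It stood out because the treated JEKO-1 library lay below its control while both treated Z138 libraries lay above both of theirs; the difference was not tested. The median of the 36 nuclear genes of oxidative phosphorylation differed in the same manner, by -0.799 in JEKO-1 and 0.147 in Z138, a difference of -0.946 that was also not tested. For sterol synthesis the JEKO-1 direction depended on the scaling: the median of the members' differences was -0.09 as deposited, 0.08 when mitochondrial genes were dropped and 0.03 after size-factor scaling. Both values rest on the 1 treated JEKO-1 library, in which 17.5% of CPM were mitochondrial transcripts and the median of all genes differed from CON by -0.24. The part of that library in both values was not tested.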

How the results depend on the processing

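S63845 against CON gave 0 called genes under 18 of 19 alternatives (414 to 1085 genes at an unadjusted p under 0.05), with 6 called in the fit over all 28 JEKO-1 and Z138 libraries. With the library-name suffix as a replicate block the count stayed 0, with 581 at an unadjusted p under 0.05 and a smallest limma adjusted p of 0.357; labels do not say that the suffix pairs libraries, and the block changed no call. The line difference gave 0 under all 8 alternatives; without either JEKO-1 library it could not be fitted. Against CLF the 28-library fit called 9, and leaving out 1 library gave 0 to 1 (1 without Z138 CLF replicate 2). Against YM155 the 28-library fit called 1, and leaving out 1 library gave 0 to 1843 (1818 without the JEKO-1 YM155 and 1843 without the JEKO-1 S63845 library), with 1 residual degree of freedom and a lone library assumed to vary like the others. Against IBR, 118 were called at a mean of at least 5 CPM, 110 with mitochondrial genes left out, 257 with size factors (151 higher, 106 lower), and 2 to 222 without 1 library. The median of all genes in S63845 against CON was -0.05, or 0.04 and -0.01 under the other scalings; in the line difference it was -0.29, or -0.10 and -0.09. The sterol synthesis median in JEKO-1 turned from -0.09 to 0.08 and 0.03 under these scalings. In S63845 and CON, 2 libraries each in Z138 and 1 each in JEKO-1 set the precision; levels under 0.160 to 0.249 CPM (3 reads) could not be told from 0.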
